A study of Mus musculus with 6 samples.

Results

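The insulin-like growth factor receptor axis is represented here by 10 genes chosen by name from the 52249 genes of the count table: the receptors Igf1r, Igf2r and Insr, the ligand Igf2, the docking proteins Irs1 and Irs2, the adaptor Grb10, and the secreted binding proteins Igfbp2, Igfbp4 and Igfbp7. All 10 were found, each as 1 row of the table. The names were chosen with results of the comparison below already known, so the differences between groups are given for these 10 genes as a description. No p-value is given for them, and nothing is read from how many lay past a test threshold. RNA was measured in mouse intestinal organoids, epithelial cultures that grow as small hollow structures from gut cells, by sequencing tags near the 3′ end of polyadenylated transcripts. The control group holds 3 libraries of Apc-knockout organoids, and the other group holds 3 libraries of Apc-knockout organoids that also overexpress IGF2BP3, an RNA-binding protein of a family named for binding Igf2 mRNA. Both groups carry the knockout of Apc, a tumour suppressor and brake on WNT signals, and no library without it was analysed here. The labels give neither the Apc allele nor the way IGF2BP3 was expressed, nor the strain, age or number of the mice behind the cultures.

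The 3 libraries of each group are taken as replicates as the labels give each a sample of its own. Nothing in the labels says that they came from separate cultures, so the spread between them may be technical. Total counts ran from 2180116 to 2519917 per library, and 3 counts, taken as the floor of detection, were worth 1.17 to 1.4 CPM (counts relative to the library total scaled by TMM factors). Igf2bp3 itself, the overexpressed gene, had 0 or 1 count in every library of both groups, under the floor. The labels do not state whether the overexpressed transcript carries the 3′ end of the mouse gene, so this count checks nothing about the label, and the second group is called IGF2BP3-labelled below. The library names put each group in a numbered series of its own, so group and series cannot be told apart in any value below. The biological coefficient of variation was 3.15% among control and 17.1% among IGF2BP3-labelled libraries. Of 8 intestinal epithelial markers, all 8 were counted high enough to be tested. In IGF2BP3-labelled libraries 5 (Krt8, Krt18, Krt19, Vil1 and Cldn3) rose and 0 fell (edgeR, adjusted p below 0.05). Epcam, Cdh1 and Cdx2 did not pass, with log2 fold changes of 0.075, -0.124 and 0.372. Of all 10687 genes tested, 29.2% passed and 16.5% were higher. The summed level of the 8 markers ran from 4044 to 4256 CPM in control and from 5482 to 6187 CPM in IGF2BP3-labelled libraries. Krt18 alone went from a mean of 1171 CPM to 2214 CPM. The part of these markers in the differences below was not tested. In a bulk sample, fewer cells of a type and less RNA per cell cannot be told apart.

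In this pathway, IGF1, IGF2 and insulin bind the related tyrosine kinase receptors IGF1R and INSR at the cell surface. The activated receptors recruit IRS docking proteins, which pass the signal to PI3K, AKT and mTOR and so favour growth, protein synthesis and survival. IGF2R has no kinase; it takes IGF2 up for breakdown in lysosomes and also sorts lysosomal enzymes that carry mannose 6-phosphate. Secreted IGF-binding proteins hold the ligands and change their access to the receptors, and GRB10 binds active receptors and damps their signal. Igf2, Igf2r and Grb10 are imprinted genes, expressed in many tissues from the copy of a single parent. In the intestine the pathway is known for supporting growth of the crypt epithelium.

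Among the 10 genes, 2 of the 3 receptors (Igf1r and Igf2r) and both docking proteins were lower without overlap. Igf1r stood at 34% of its control mean in IGF2BP3-labelled libraries, Irs2 at 59.6%, Irs1 at 61.7% and Igf2r at 63%. For each of these 4 genes, every IGF2BP3-labelled library was below every control library. The receptor Insr, the binding proteins Igfbp4 and Igfbp7 and the adaptor Grb10 overlapped between groups, at 74.9%, 106%, 117% and 93.3% of control. The ligand Igf2 and the binding protein Igfbp2 were at or under the floor in every library. Of the 10 genes, 8 passed the filter on low counts, and of these 3 (Igf1r, Igf2r and Irs2) lay past the edgeR threshold of adjusted p below 0.05, all lower, beside 29.2% of all 10687 genes tested in both directions and 12.7% that were lower. Group ranges did not overlap for 4 of the 8, beside 45.7% of all genes tested. Nothing is read from these shares, since the same comparison was in view when the genes were chosen. The median log2 fold change of the 8 was -0.54, against 0.04 over all genes tested.

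The promoters of the 4 counted genes that were lowest relative to control are shown so that short motifs in them can be seen. Whether any motif bears on the lower levels was not tested. Each sequence is the 250 bases before the RefSeq start of the gene in the build GRCm38.p6, read 5′ to 3′ on the strand of the gene. In Igf2r, Irs1 and Irs2 the capitals mark the E-box CACGTG, a palindrome read by the MYC and MAX family of factors among others. In Igf1r, where CACGTG is not in the window, they mark the GC box GGGCGG, a motif of SP-family factors. GGGCGG is also in the windows of Igf2r, Irs1 and Irs2, where it is left in small letters. The windows are chr17:12769707-12769956 for Igf2r (minus strand), chr1:82291440-82291689 for Irs1 (minus strand), chr8:11008930-11009179 for Irs2 (minus strand) and chr7:67952007-67952256 for Igf1r (plus strand).
Igf2r: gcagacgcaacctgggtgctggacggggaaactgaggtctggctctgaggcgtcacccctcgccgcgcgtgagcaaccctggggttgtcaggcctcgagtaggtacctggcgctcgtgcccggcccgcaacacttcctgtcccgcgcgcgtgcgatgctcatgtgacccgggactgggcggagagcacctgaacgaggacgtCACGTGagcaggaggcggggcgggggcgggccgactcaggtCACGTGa
Irs1: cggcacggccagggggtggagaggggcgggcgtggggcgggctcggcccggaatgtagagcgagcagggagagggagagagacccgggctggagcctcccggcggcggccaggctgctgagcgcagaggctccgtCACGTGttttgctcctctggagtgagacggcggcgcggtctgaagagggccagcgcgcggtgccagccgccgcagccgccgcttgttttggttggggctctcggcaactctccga
Irs2: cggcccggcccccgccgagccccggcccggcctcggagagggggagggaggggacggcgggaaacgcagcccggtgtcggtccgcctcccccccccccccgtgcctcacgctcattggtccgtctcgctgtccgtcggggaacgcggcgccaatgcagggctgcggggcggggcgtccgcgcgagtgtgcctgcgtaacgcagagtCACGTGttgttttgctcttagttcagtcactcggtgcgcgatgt
Igf1r: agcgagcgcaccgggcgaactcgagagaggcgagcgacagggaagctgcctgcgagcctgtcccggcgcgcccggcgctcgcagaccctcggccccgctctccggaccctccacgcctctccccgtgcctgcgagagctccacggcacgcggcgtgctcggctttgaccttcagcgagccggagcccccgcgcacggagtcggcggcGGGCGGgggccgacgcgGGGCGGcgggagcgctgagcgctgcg
The Igf2r window holds 2 E-boxes, with their first bases 48 and 7 bases before the start. Irs1 has 1 at 115 bases and Irs2 has 1 at 44 bases before the start. RefSeq promoters were matched by symbol for 9 of the 10 genes, with 14 entries in all, and CACGTG was in 4 of the 14 entries (28.6%; 1 each of Igf2r, Irs1, Irs2 and Igfbp2), beside 6.02% of all 32851 promoter windows of the same length. GGGCGG, searched on both strands, was in 9 of the 14 entries (64.3%), beside 32.7% of all windows. GTAAACA, a core motif of FOXO factors, was in 0 of the 14 entries on either strand, beside 3.17% of all windows. TATAAA was in 1 of the 14 entries (7.14%), that of Igfbp4, beside 12.4% of all windows. The GC content of the 14 windows ran from 47.6% to 81.2%, and the shares were not adjusted for it. These are matches of letters, not measured sites, and no match says only that the letters are not in this window.

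**Figure D1:**
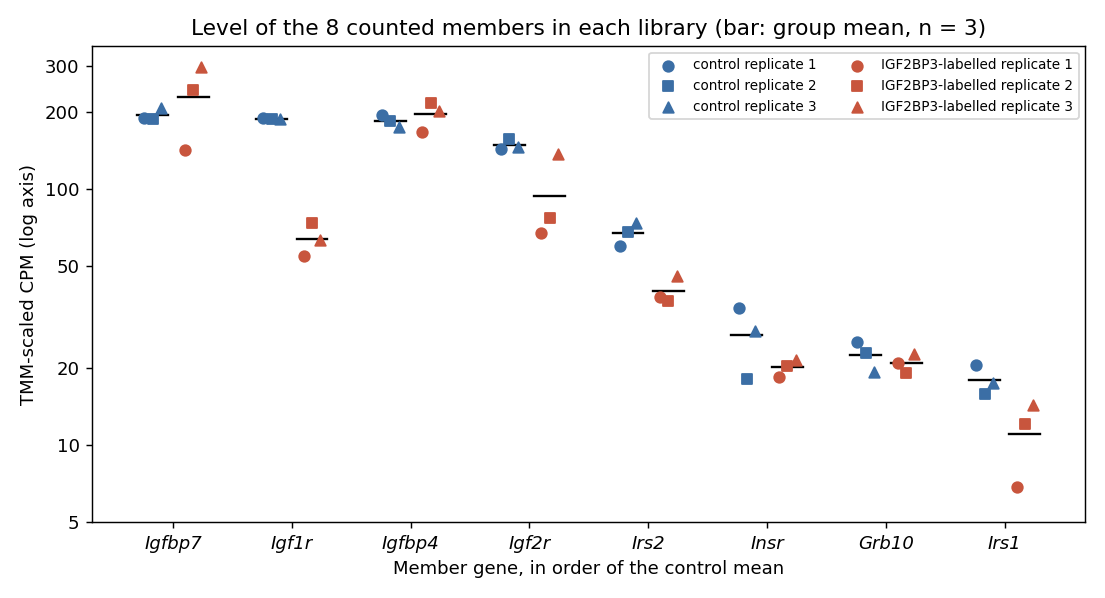
Level of each of the 8 members that passed the count filter (TMM-scaled CPM, log axis) in the 3 control libraries (blue) and the 3 IGF2BP3-labelled libraries (red), with bars at the group means and marker shapes for the replicate numbers. Igf1r lies between 186.3 and 189 CPM in control and between 54.73 and 73.45 CPM in IGF2BP3-labelled libraries, while Igfbp4 and Grb10 overlap.

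Igf1r (ENSMUSG00000005533, plus strand of chromosome 7, 67952827 to 68233668 in GRCm38) encodes the IGF1 receptor, the main signalling receptor for both IGFs. The control libraries held 413, 402 and 407 counts of it, and the IGF2BP3-labelled libraries 136, 188 and 150 counts. In CPM these are 189, 187.3 and 186.3 in control and 54.73, 73.45 and 62.99 in IGF2BP3-labelled libraries. All 3 control libraries lie close together and every IGF2BP3-labelled library is far under them. The means were 187.5 ± 1.4 CPM and 63.72 ± 9.38 CPM (SD, n = 3), and the log2 fold change was -1.56 (SE 0.12). The level of Igf1r lay above 92.2% of the genes tested in control and above 72.6% in IGF2BP3-labelled libraries. Its fold change ranked number 62 from the lowest of the 10687 genes tested. With an offset for exonic length the log2 fold change was -1.22; Igf1r has 16791 bases of annotated exon.

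Insr (ENSMUSG00000005534, minus strand of chromosome 8, 3122061 to 3279617), the insulin receptor, was counted much lower than Igf1r, with counts of 75, 39 and 61 in control and of 46, 52 and 51 in IGF2BP3-labelled libraries. Control libraries stood at 34.33, 18.17 and 27.92 CPM and IGF2BP3-labelled libraries at 18.51, 20.32 and 21.42 CPM. The IGF2BP3-labelled values lie inside the control range, above control replicate 2 and below the other two. The means were 26.81 ± 8.13 CPM and 20.08 ± 1.47 CPM (SD, n = 3), and the log2 fold change was -0.42 (SE 0.23). The ratio of Igf1r to Insr counts within a library was 5.51, 10.3 and 6.67 in control and 2.96, 3.62 and 2.94 in IGF2BP3-labelled libraries. This ratio did not overlap between groups, with Igf1r the more abundant receptor transcript in all 6 libraries.

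Igf2r (ENSMUSG00000023830, minus strand of chromosome 17, 12682406 to 12769664) encodes the receptor that clears IGF2. It stood at 142.8, 156.6 and 145.5 CPM in control and at 67.21, 76.57 and 136.5 CPM in IGF2BP3-labelled libraries. IGF2BP3-labelled replicate 3 is close to the control libraries, and the other two lie far below them. The means were 148.3 ± 7.29 CPM and 93.42 ± 37.6 CPM (SD, n = 3), and the log2 fold change was -0.67 (SE 0.21). Without IGF2BP3-labelled replicate 3 the log2 fold change was -1.07. The ratio of Igf1r to Igf2r counts was 1.32, 1.2 and 1.28 in control and 0.814, 0.959 and 0.462 in IGF2BP3-labelled libraries, so that Igf1r exceeded Igf2r in all 3 control libraries and in no IGF2BP3-labelled library.

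Igf2r shares its locus with Airn, a non-coding RNA transcribed from the opposite strand inside Igf2r, which silences Igf2r on the paternal copy. No exons of the pair overlap in the annotation. Airn stood at 18.77, 19.11 and 21.51 CPM in control and at 10.06, 16.8 and 28.14 CPM in IGF2BP3-labelled libraries. Both Igf2r and Airn were lowest in IGF2BP3-labelled replicate 1 and highest in IGF2BP3-labelled replicate 3. Beside them, 36.8% of all genes tested were lowest in the former and 36% highest in the latter. Of the 8 listed imprinted or overlapping neighbours of Igf2, Igf2r and Grb10, 3 were counted high enough to be tested (Airn, Cobl and Ddc) and 0 passed the edgeR threshold. Cobl, an actin nucleator next to Grb10, was the most abundant of them at 65.08 ± 1.66 CPM in control and 54.63 ± 5.46 CPM in IGF2BP3-labelled libraries (SD, n = 3, edgeR adjusted p = 0.158). Without IGF2BP3-labelled replicate 1 Cobl passed and was lower (-0.37, edgeR adjusted p = 0.0454).

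Ligand transcripts were hardly counted. Igf2 (ENSMUSG00000048583, minus strand of chromosome 7, 142650766 to 142666816) encodes the ligand of IGF1R and IGF2R and had values of 1, 1 and 0.5 counts in control against 0.5, 0 and 0.5 in IGF2BP3-labelled libraries. All 6 values are below 3 counts, so Igf2 was not detectable at this depth and no fold change is given. Its exons overlap 1 annotated gene on each strand, so even these counts are uncertain. Igf1 had at most 1 count in any library, and Ins1 and Ins2, the insulin genes of the mouse, had 0 counts in all 6 libraries. None of the 8 other ligands and receptors listed passed the count filter, Igflr1 being the most abundant at 3.073 ± 0.567 CPM in control and 3.629 ± 0.274 CPM in IGF2BP3-labelled libraries (SD, n = 3). H19, the imprinted non-coding RNA beside Igf2, had 2, 0 and 2 counts in control and 0 in every IGF2BP3-labelled library, also under the floor. Mesenchymal cells are a known source of IGFs in the gut, and of 10 fibroblast and smooth muscle markers 6 were at 0 in every library (Col1a2, Col3a1, Pdgfrb, Dcn, Lum and Thy1). The summed level of the 10 was at most 3.262 CPM in control and at most 1.953 CPM in IGF2BP3-labelled libraries. Whether the low level of these markers bears on the ligand counts was not tested.

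Irs2 (ENSMUSG00000038894, minus strand of chromosome 8, 10984681 to 11008458) was the more abundant docking protein transcript. It stood at 59.96, 68.04 and 73.22 CPM in control and at 37.83, 36.33 and 45.77 CPM in IGF2BP3-labelled libraries. Every IGF2BP3-labelled library is below every control library. The means were 67.07 ± 6.68 CPM and 39.98 ± 5.07 CPM (SD, n = 3), and the log2 fold change was -0.75 (SE 0.14). With an offset for GC content it was -0.97, in the same direction. An exon of Irs2 overlaps 1 annotated gene on the opposite strand, and the use of strand in counting is not given in the sources used here.

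Irs1 (ENSMUSG00000055980, minus strand of chromosome 1, 82233101 to 82291416), the related docking protein, rested on few reads, with counts of 45, 34 and 38 in control and of 17, 31 and 34 in IGF2BP3-labelled libraries. Control libraries stood at 20.6, 15.84 and 17.39 CPM and IGF2BP3-labelled libraries at 6.841, 12.11 and 14.28 CPM. The groups do not overlap, but the gap between the highest IGF2BP3-labelled and the lowest control library is small beside the spread within the IGF2BP3-labelled group. The means were 17.94 ± 2.42 CPM and 11.08 ± 3.82 CPM (SD, n = 3), and the log2 fold change was -0.7 (SE 0.27). The ratio of Irs2 to Irs1 counts was 3.81 ± 0.775 in control and 3.91 ± 1.4 in IGF2BP3-labelled libraries (SD, n = 3), so that the balance of the pair differed by less than its spread. An exon of Irs1 also overlaps 1 gene on the opposite strand.

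Grb10 (ENSMUSG00000020176, minus strand of chromosome 11, 11930508 to 12038683), the adaptor that damps the receptors, stood at 25.17, 22.83 and 19.22 CPM in control and at 20.93, 19.14 and 22.68 CPM in IGF2BP3-labelled libraries. The groups overlap almost fully. The log2 fold change was -0.1 (SE 0.19), which became 0.07 with the offset for exonic length, so that no direction is given.

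Igfbp4 (ENSMUSG00000017493, plus strand of chromosome 11, 99041244 to 99054392) encodes a binding protein that mostly restrains IGF signalling. It stood at 194.1, 183.6 and 174.4 CPM in control and at 167, 216.8 and 200.7 CPM in IGF2BP3-labelled libraries. The IGF2BP3-labelled libraries lie on both sides of the control range. The means were 184 ± 9.86 CPM and 194.9 ± 25.4 CPM (SD, n = 3), and the log2 fold change was 0.08 (SE 0.12), which was -0.11 with the GC offset. The ratio of Igfbp4 to Igf1r counts was 1.03, 0.98 and 0.936 in control and 3.05, 2.95 and 3.19 in IGF2BP3-labelled libraries, close to equal numbers in one group and near 3 to 1 in the other. The spread of this ratio was small within each group, at an SD of 0.0453 in control and 0.118 in IGF2BP3-labelled libraries (n = 3).

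Igfbp7 (ENSMUSG00000036256, minus strand of chromosome 5, 77349240 to 77408041), a secreted relative of the binding proteins with low affinity for IGFs, stood at 189.5, 186.9 and 205.9 CPM in control and at 142.1, 243 and 298.6 CPM in IGF2BP3-labelled libraries. IGF2BP3-labelled replicate 1 lies under all control libraries and the other two lie above them. The means were 194.1 ± 10.3 CPM and 227.9 ± 79.3 CPM (SD, n = 3), and the log2 fold change was 0.23 (SE 0.2). It was 0.42 without IGF2BP3-labelled replicate 1 and -0.04 without IGF2BP3-labelled replicate 3, so its direction rests on single libraries. An exon of Igfbp7 overlaps the opposite-strand gene Polr2b. Igfbp2 (ENSMUSG00000039323, plus strand of chromosome 1, 72824503 to 72852474) had 1, 1 and 2 counts in control and 0 in every IGF2BP3-labelled library, all under the floor, and no fold change was computed.

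**Figure D2:**
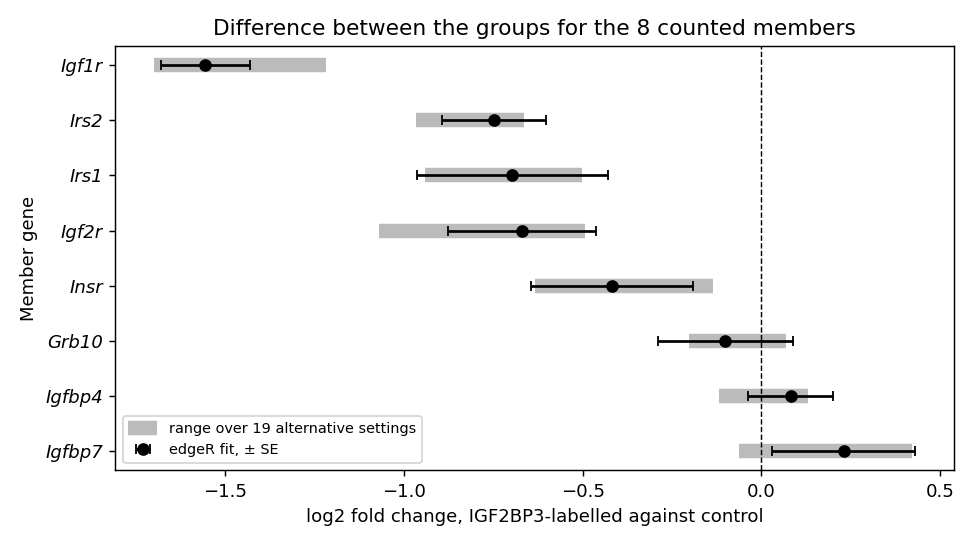
Log2 fold change of the 8 counted members, IGF2BP3-labelled against control, from the edgeR fit across all genes (points, with bars of 1 SE), and the range over 19 alternative settings (grey). Igf1r stays between -1.7 and -1.22, and the ranges of Grb10, Igfbp4 and Igfbp7 include 0.

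In principle a 3′ tag count does not scale with transcript length, so the CPM of different genes are set beside each other here. Whether these genes were counted with equal efficiency was not tested, so the order is one of counts. In control libraries the order was Igfbp7 (194.1 CPM), Igf1r (187.5 CPM), Igfbp4 (184 CPM), Igf2r (148.3 CPM), Irs2 (67.07 CPM), Insr (26.81 CPM), Grb10 (22.41 CPM) and Irs1 (17.94 CPM). The leading 3 overlap one another, as do the last 3, whereas Igf2r and Irs2 stand clear of their neighbours in the control libraries. In IGF2BP3-labelled libraries the order was Igfbp7 (227.9 CPM), Igfbp4 (194.9 CPM), Igf2r (93.42 CPM), Igf1r (63.72 CPM), Irs2 (39.98 CPM), Grb10 (20.92 CPM), Insr (20.08 CPM) and Irs1 (11.08 CPM). There Igfbp7 and Igfbp4 overlap, Igf2r overlaps Igf1r, and Grb10 overlaps Insr.

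The IGF2BP3-labelled libraries differed more among themselves than the control libraries did. IGF2BP3-labelled replicate 1 held the lowest IGF2BP3-labelled value for 6 of the 8 counted members, beside 36.8% of all genes tested. IGF2BP3-labelled replicate 3 held the highest value for 6 of the 8, beside 36% of all genes tested. Irs2 and Grb10, which were lowest in replicate 2, are the exceptions to the first pattern, and Igf1r and Igfbp4, which were highest in replicate 2, to the second. On the first principal component of log2 CPM over all genes tested (56.4% of the variance), IGF2BP3-labelled replicates 1, 2 and 3 lay at 39.89, 23.37 and 16.26, and control libraries between -27.68 and -24.79. On the second component (20.1% of the variance) these replicates lay at 26.07, -11.71 and -26.95, and control libraries between 2.83 and 6.64. The part of either order in the values above was not tested.

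**Figure D3:**
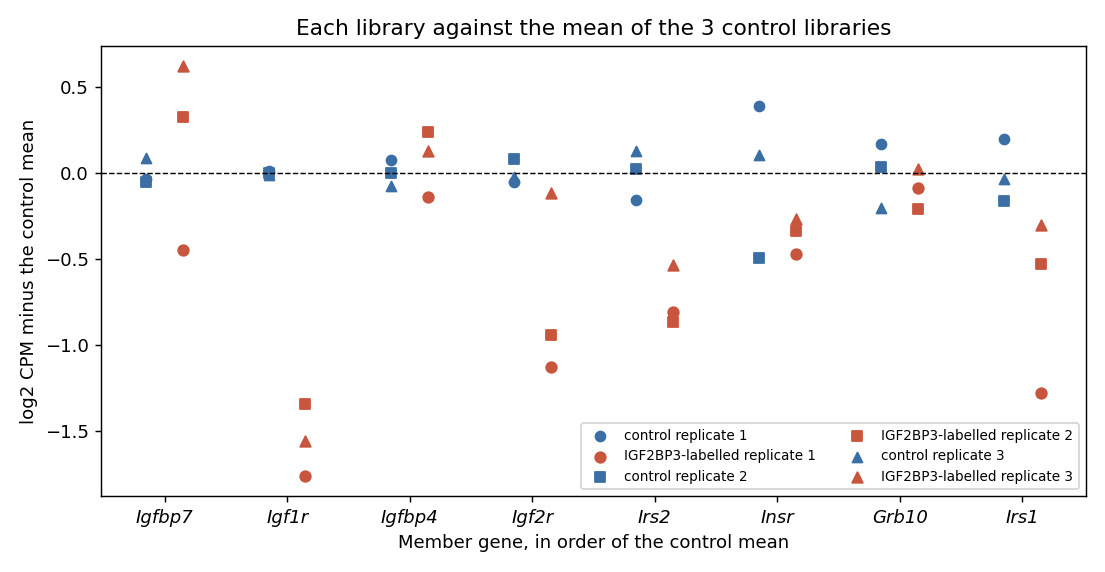
Log2 CPM of each member in each library minus the mean of the 3 control libraries, with control libraries in blue and IGF2BP3-labelled libraries in red. All 3 red points of Igf1r lie more than 1 log2 unit under the control mean, while those of Igf2r, Irs1 and Igfbp7 are spread widely with replicate 1 lowest.

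The genes with a profile over the 6 libraries most like that of Igf1r were Gm5586, Styk1 and Gja1, by the root mean square difference in centred log2 CPM among 6468 genes with an average of at least 50 counts. The difference was 0.113 for the gene model Gm5586, 0.125 for Styk1, a receptor-like kinase, and 0.132 for Gja1, which encodes the gap junction protein connexin 43. Gja1 stood at 53.1, 61.51 and 53.09 CPM in control and at 16.9, 25.78 and 21.84 CPM in IGF2BP3-labelled libraries. Styk1 went from a mean of 37.76 CPM to 13.35 CPM. These profiles are set mainly by the difference between the groups.

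The rest of the pathway was examined in 8 lists of 103 further genes, grouped by their known roles and written with earlier results of these data known. Of the 103 genes, 77 were tested, 13 rose and 12 fell in IGF2BP3-labelled libraries (edgeR, adjusted p below 0.05), and 52 did not pass. The share that passed, 32.5%, is near the 29.2% of all genes tested. The median log2 fold change was 0.03, against 0.04 over all genes. With DESeq2's test 6 rose and 9 fell, and with the GC offset 8 rose and 10 fell. Without control replicate 1, 2 or 3, 16, 12 and 14 genes passed. Without IGF2BP3-labelled replicate 2, 8 rose.

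Among the other binding proteins and their partners, 5 of 10 genes were tested, 1 rose and 1 fell, and the median log2 fold change was 0.39. Igfbp3, the main IGF carrier of serum, stood at 50.35, 55.45 and 54 CPM in control and at 6.439, 26.18 and 32.75 CPM in IGF2BP3-labelled libraries. All IGF2BP3-labelled libraries are below control, with replicate 1 lowest by far. Igfbp3 fell, and its log2 fold change was -1.29 with an SE of 0.34 (edgeR adjusted p = 0.0138). DESeq2's test gave an adjusted p of 0.102 for Igfbp3, and the fits without control replicate 2 or 3 gave 0.0555 and 0.0546 (edgeR). Stc2, a stanniocalcin that inhibits the protease which frees IGF from IGFBP4, rose by 0.39 (SE 0.13, edgeR adjusted p = 0.0373), from 49.57 ± 0.525 CPM to 65 ± 5.87 CPM (SD, n = 3). The call for Stc2 was lost in 13 of 19 alternatives, with adjusted p up to 0.198, and in every fit without 1 library other than IGF2BP3-labelled replicate 3. Igfbp5, the most abundant of this list, stood at 154.7 ± 2.85 CPM and 113.3 ± 41.1 CPM (SD, n = 3) and did not pass (log2 fold change -0.45, SE 0.19, edgeR adjusted p = 0.0927). Its IGF2BP3-labelled replicate 3 (160.8 CPM) lay above all control libraries, and leaving it out moved the log2 fold change to -0.81 with an edgeR adjusted p of 0.000195. The proteases Pappa and Pappa2 had 0 counts in all libraries.

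Of 19 adaptors and feedback proteins, 15 were tested, 1 rose and 4 fell, with a median log2 fold change of -0.16. Sos1, the exchange factor that links receptors to RAS, fell from 57.79 ± 10.2 CPM to 30.78 ± 4.61 CPM (SD, n = 3), which is a log2 fold change of -0.91 with an SE of 0.17 (edgeR adjusted p = 0.00234). Crk, an SH2 and SH3 adaptor, fell from 48.07 ± 5.29 CPM to 26.74 ± 3.59 CPM (SD, n = 3), which is a log2 fold change of -0.85 with an SE of 0.16 (edgeR adjusted p = 0.00253). Both calls held in all 19 alternatives. Dok1, a docking protein that restrains kinase signals, rose by 0.7 (SE 0.18, edgeR adjusted p = 0.012), a call lost in 6 of 19 alternatives, among them the GC offset (0.46, edgeR adjusted p = 0.0705) and the fits without control replicate 2 (0.0674) or IGF2BP3-labelled replicate 2 (0.0591). Grb7, a relative of Grb10 and the most abundant of the list, stood at 116.8 ± 1.37 CPM and 118.8 ± 7.56 CPM (SD, n = 3) and did not pass (edgeR adjusted p = 0.886).

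Of 20 PI3K and AKT genes, 19 were tested, 5 rose and 2 fell, with a median log2 fold change of 0.29. The 2 forms of the kinase GSK3, which AKT inhibits, changed in opposite directions. Gsk3b fell from 427.7 ± 13.2 CPM to 277.4 ± 30.8 CPM (SD, n = 3), which is a log2 fold change of -0.62 with an SE of 0.11 (edgeR adjusted p = 0.00127). Gsk3a rose from 27.04 ± 3.63 CPM to 45.54 ± 2 CPM (SD, n = 3), which is a log2 fold change of 0.75 with an SE of 0.16 (edgeR adjusted p = 0.00372), though an exon of it overlaps 1 gene on the opposite strand. The other 4 genes that rose in this list were Akt1, Foxo1, Foxo3 and Pik3r2. In that order their log2 fold changes were 0.437, 0.503, 0.489 and 0.512 (edgeR adjusted p = 0.0122, 0.0191, 0.0144 and 0.0419). The group ranges of Pik3r2 overlap. Foxo1 and Pik3r2 each have an exon that overlaps 1 gene on the opposite strand. Whether these 4 calls hold in the alternatives is not given here.

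All 17 mTOR genes were tested, 3 rose and 3 fell, with a median log2 fold change of -0.11. Deptor, an inhibitor bound to both mTOR complexes, rose from 201.1 ± 8.75 CPM to 314.2 ± 21.3 CPM (SD, n = 3), which is a log2 fold change of 0.64 with an SE of 0.1 (edgeR adjusted p = 0.000853), though an exon of it overlaps 1 gene on the opposite strand. Eif4ebp1, a repressor of cap-dependent translation that mTOR inactivates, rose by 0.71 (SE 0.11, edgeR adjusted p = 0.000867). Rictor, the defining subunit of mTOR complex 2, fell from 111.3 ± 4.65 CPM to 67.82 ± 6.97 CPM (SD, n = 3), which is a log2 fold change of -0.71 with an SE of 0.12 (edgeR adjusted p = 0.00121). These 3 calls held in all 19 alternatives. Ddit4, a stress-induced inhibitor of mTOR and the most abundant of the list, stood at 441.9 ± 21.4 CPM and 354.5 ± 115 CPM (SD, n = 3) and did not pass (log2 fold change -0.32, edgeR adjusted p = 0.217). Ddit4 passed in 4 of 19 alternatives, lower in each: without a count filter (edgeR adjusted p = 0.0327), with the GC offset (-0.56, edgeR adjusted p = 0.0392), with that offset plus the replicate block (-0.6, edgeR adjusted p = 0.0147) and without IGF2BP3-labelled replicate 2 (-0.57, edgeR adjusted p = 0.049). Without IGF2BP3-labelled replicate 3 it was at -0.12 (edgeR adjusted p = 0.422).

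Of 14 genes commonly listed as activated by FOXO factors, which AKT keeps out of the nucleus, 11 were tested, 1 rose and 2 fell, with a median log2 fold change of 0.07. Cat, encoding catalase, rose from 74.94 ± 8.99 CPM to 130.5 ± 5.71 CPM (SD, n = 3), which is a log2 fold change of 0.8 with an SE of 0.12 (edgeR adjusted p = 0.000675). Klf6, a zinc finger factor, fell from 298.9 ± 16 CPM to 154.1 ± 38.1 CPM (SD, n = 3), which is a log2 fold change of -0.96 with an SE of 0.16 (edgeR adjusted p = 0.000986). Ccng2, a cyclin of non-dividing cells, fell by 0.84 (SE 0.29, edgeR adjusted p = 0.0416), a call lost in 8 of 19 alternatives, among them the fits without control replicate 1, 2 or 3 (edgeR adjusted p = 0.127, 0.102 and 0.106). Txnip, the most abundant of the list, stood at 165.4, 378.6 and 446.4 CPM in IGF2BP3-labelled libraries around a control mean of 314.9 ± 15.1 CPM (SD, n = 3) and did not pass (edgeR adjusted p = 0.865). Without IGF2BP3-labelled replicate 1 Txnip passed and was higher (0.33, edgeR adjusted p = 0.0111).

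Of 7 genes of mannose 6-phosphate sorting, the lysosomal role that Igf2r shares with M6pr, all 7 were tested, 2 rose and 0 fell, with a median log2 fold change of 0.03. Nagpa, the enzyme that uncovers the mannose 6-phosphate tag, rose from 14.14 ± 3.5 CPM to 26.44 ± 3.7 CPM (SD, n = 3), which is a log2 fold change of 0.9 with an SE of 0.22 (edgeR adjusted p = 0.00909). Nagpa did not pass without control replicate 1 or 3 (edgeR adjusted p = 0.0524 and 0.0533). Gga1, a coat adaptor for the receptors, rose by 0.49 (SE 0.13, edgeR adjusted p = 0.0142), a call that did not hold in 5 of 19 alternatives, among them the GC offset (0.23, edgeR adjusted p = 0.234) and the fits without control replicate 1 (0.0824) or 2 (0.0618). M6pr, the small mannose 6-phosphate receptor, stood at 34.61, 75.79 and 115.1 CPM in IGF2BP3-labelled libraries around a control mean of 77.69 ± 7.44 CPM (SD, n = 3) and did not pass (edgeR adjusted p = 0.917). Igf2r and M6pr were both lowest in IGF2BP3-labelled replicate 1 and highest in IGF2BP3-labelled replicate 3. Of all genes tested, 36.8% were lowest in the former and 36% highest in the latter. The share of genes with both was not counted, so nothing is read from the shared order.

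The Igf2bp family of RNA-binding proteins crosses this axis. Igf2bp1 stood at 19.96 ± 1.69 CPM in control and 11.3 ± 0.788 CPM in IGF2BP3-labelled libraries (SD, n = 3, edgeR adjusted p = 0.0111). Without control replicate 2 Igf2bp1 did not pass (edgeR adjusted p = 0.0554). Igf2bp2 stood at 31.3 ± 2.32 CPM and 20.98 ± 3.57 CPM (SD, n = 3, edgeR adjusted p = 0.0308). Igf2bp2 failed the threshold in 7 of 19 alternatives: with DESeq2's test, with the exonic length offset and without any 1 of control replicates 1, 2 and 3 or IGF2BP3-labelled replicates 2 and 3, at adjusted p of 0.0591 to 0.122.

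**Figure D4:**
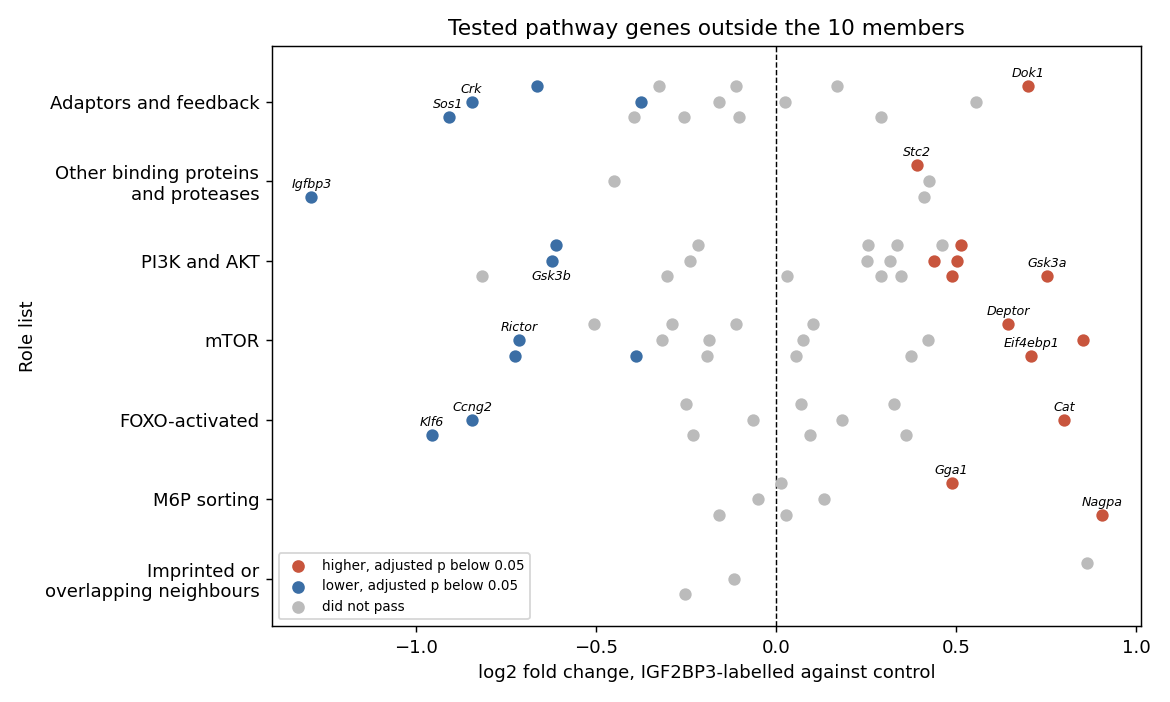
Log2 fold change, IGF2BP3-labelled against control, of the 77 tested pathway genes outside the 10 members, in rows by role, with red for genes that rose, blue for genes that fell and grey for those that did not pass (edgeR, adjusted p below 0.05). Red and blue points stand in most rows, with 13 and 12 in all, and the 3 neighbours of imprinted members are grey.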

How the data were processed

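RNA of mouse intestinal organoids was sequenced with a QuantSeq 3′ mRNA forward kit, per the labels' protocols. The table deposited by the authors holds estimated counts without normalization, of which 2843 values (3.09% of those above 0) were fractional; they were rounded before testing, whereas whole counts had been planned for. STAR, HTSeq and the builds mm10 and GRCm38 are named, per the submitters' processing notes; the annotation, strand and multi-mapping settings are not given in the sources used here. All value columns were used and matched to samples by library name.

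IGF2BP3-labelled was compared with control by the quasi-likelihood test of edgeR 4.0.16 (R 4.3.3) on 10687 genes kept by filterByExpr, with TMM factors and Benjamini-Hochberg adjustment (threshold 0.05). The SE was taken as the log2 fold change over the root of F. Alternatives were other scalings and filters, DESeq2 1.42.0, limma-voom (limma 3.58.1) with a variance per group, equal depth, no mitochondrial genes, unrounded counts, offsets for GC content and exonic length (loess, span 0.5), the replicate block and each library left out. The fit was run on data simulated with the same spread in both groups. It recovered 78.5% of 200 genes set to differ by 1 log2 unit, and 5.99% of its calls were unchanged genes. With no gene changed it made 1 call. The real groups differ in spread (3.15% and 17.1%), and the fit was not tested in that setting. Positions, lengths and GC content come from GENCODE M21 (GRCm38), in which 99.5% of gene identifiers were found; promoters come from RefSeq (GRCm38.p6). The members and lists were chosen with earlier results of these data known. Named besides the members were, per list, the gene with the highest mean CPM and up to 3 past the threshold with the smallest p. Akt1, Foxo1, Foxo3 and Pik3r2 were named after their values were seen, as were the epithelial markers. A gene that this rule selects is not reported here. Further marker lists were endothelial, immune, enteric neural and enteroendocrine. Endothelial and enteroendocrine genes had at most 1 count in any library and 0 were tested, 1 of 6 immune genes was tested and did not pass, and of 4 neural genes S100b was tested and rose while Elavl4 was at 0. Floors cover counting error only.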

Additional observations from a re-analysis of the deposited data

How the results depend on the processing

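Igf1r, Igf2r, Insr, Irs1 and Irs2 stayed lower in IGF2BP3-labelled libraries in all 19 alternatives. In that order their log2 fold changes were -1.56, -0.67, -0.42, -0.7 and -0.75 in the main fit. With the exonic length offset each difference was smaller, at -1.22, -0.49, -0.13, -0.52 and -0.66. That of Insr was then below its SE of 0.23. Igfbp4 changed sign with the GC offset (-0.11), with the replicate block and GC offset (-0.12) and when single libraries were left out (-0.032 to 0.127). Igfbp7 became -0.063 with the block and GC offset and ran from -0.043 to 0.423 without single libraries, and Grb10 became 0.07 with the length offset. Of the members, 2 to 4 were past the threshold and lower over the alternatives, beside 715 to 1732 of all genes tested. In the main fit these numbers were 3 and 1353. Without IGF2BP3-labelled replicate 1, 1 member was higher, beside 1612 of all genes, against 0 and 1767 in the main fit. Nothing is read from these counts, since the members were chosen with the same comparison in view.

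Over all genes, 3120 passed, 1767 higher; leaving out single libraries gave 1748 to 3522 genes, 1033 to 1808 higher and 715 to 1732 lower, with 1892, 1837 and 1748 without control replicates 1, 2 and 3. DESeq2's test gave 1059 higher. Of the pathway genes, 15 passed with DESeq2's test, 6 of them higher, and 8 were higher with the GC offset; leaving out single libraries gave 12 to 32, 6 to 16 higher and 6 to 16 lower. The cause of these shifts was not tested, except that fits without a library hold fewer samples. Among genes that did not pass, Grb7 changed sign to -0.019 with DESeq2 size factors and with DESeq2's test, -0.022 with the stricter filter, -0.01 without a filter, -0.031 without mitochondrial genes, -0.19 with the GC offset, -0.193 once the block was added to it, and -0.076 for exonic length; it ran from -0.052 to 0.034 without single libraries. Txnip became -0.054 with limma-voom, -0.034 with the block, -0.049 for exonic length, and ran from -0.245 to 0.333 without single libraries. M6pr became 0.002 with library totals, 0.099 with the GC offset, 0.007 with the block and GC offset, and ran from -0.521 to 0.236 without single libraries.

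Equally numbered libraries deviated together at correlations of 0.1, 0.02 and 0.07 across genes, so the numbers were not taken to pair the samples. With the replicate block 3113 genes passed (2959 shared), 25 pathway genes passed, Stc2 no longer passed (edgeR adjusted p = 0.0502) and Igfbp5 did (edgeR adjusted p = 0.0314). Counts of 17 to 45 limit Irs1, and Igf2 and Igfbp2 lie under the floor.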
